A study of Oryza sativa Japonica Group with 8 samples.

Results

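The Aux/IAA genes encode short-lived nuclear repressors of the auxin response, and 10 of them were followed here in young rice inflorescences of osg1l2 and wild type plants. The 10 were taken by identifier from the per-library table, which lists 37859 genes, as OsIAA1 (Os01g0178500), OsIAA3 (Os01g0231000), OsIAA6 (Os01g0741900), OsIAA10 (Os02g0817600), OsIAA11 (Os03g0633500), OsIAA12 (Os03g0633800), OsIAA13 (Os03g0742900), OsIAA23 (Os06g0597000), OsIAA30 (Os12g0601300) and OsIAA31 (Os12g0601400). The rule for taking them used no measured value, but the members were chosen with earlier results of these data known. The identifier gives the chromosome in the digits after Os. All 10 were found, and 8 of them reached a mean of 1 FPKM (fragment abundance, scaled by the authors for gene length and library size) over the 8 libraries, the level required for the test between genotypes.

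An Aux/IAA protein binds auxin response factors and recruits corepressors of the TOPLESS type, which keeps auxin-responsive genes silent. Auxin joins the repressor to an F-box receptor of the TIR1/AFB kind, the repressor is degraded, and transcription is released. Many Aux/IAA genes are themselves switched on early by auxin, so that their transcripts are used as a readout of the response. Auxin marks the sites where lateral meristems form on the inflorescence, and in maize, dominant mutations of Aux/IAA genes give barren inflorescences.

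Both groups were of the japonica cultivar Nipponbare, 4 libraries of an osg1l2 single mutant and 4 of a wild type control. OsG1L2 encodes a protein of the ALOG family of plant nuclear proteins. The tissue was dissected meristem, described by the labels as enriched in PBMs and ePBM/Ams, taken from plants moved from long days to short days for 12 days. The sources used here do not give the mutant allele or the number of independent mutant lines, so a difference between genotypes cannot be told apart from a difference between these plant lines. In dissected tissue, a lower share of cells that express a gene and less RNA per cell cannot be told apart either.

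The deposited values summed to between 213940 and 231675 FPKM per library. Read depth is unknown. Identifiers for OsG1L2 and for tissue markers came from general knowledge of rice annotation, since neither the deposited tables nor the reference gene table pairs them with names. Os06g0672400, the identifier held to be OsG1L2, lay between 9.66 and 14.3 FPKM in wild type and between 5.06 and 6.47 FPKM in osg1l2, so its transcript was lower but present (limma adjusted p = 0.003). Of 8 inflorescence meristem markers, 6 reached the test and none passed it (limma; 4 at an unadjusted p under 0.05, which 19.5% of all tested genes reached). The authors' deposited table gave 3 of the 8 a q-value under 0.05, all lower in osg1l2, where 2.02% of all entries had such a q-value. The summed level of the 8 markers was 68.4 to 82.8 FPKM in wild type and 49.1 to 70.0 FPKM in osg1l2. Without wild type replicate 2 the wild type range was 75.6 to 82.8 FPKM. Of the 2 markers that did not reach the test, Os06g0665400 stayed between 0.172 and 0.44 FPKM, and Os07g0669500 was listed at 0 in 7 of the 8 libraries. The summed level of 4 floral organ markers was 3.98 to 5.19 FPKM in wild type and 5.21 to 8.89 FPKM in osg1l2, with 2 of the 4 at or below 0.0279 FPKM in every library. The other 2, Os06g0712700 (q = 0.0024) and Os03g0215200 (q = 0.0064), were higher in osg1l2 in the authors' deposited table, and neither passed limma (adjusted p = 0.12 and 0.40). The summed level of 5 leaf markers was 70.9 FPKM in wild type replicate 2, against 8.52 to 10.1 FPKM in the other wild type libraries and 6.76 to 11.7 FPKM in osg1l2. Calls and fold changes below that change without wild type replicate 2 are given both ways, while levels, shares and spreads include that library.

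The genes spanned a wide range of levels, and their order was much the same in both genotypes. OsIAA3 was the most abundant, with a mean of 50.9 FPKM over the 8 libraries, above 98.3% of all listed genes. It was followed by OsIAA10 at 28.5 FPKM, OsIAA30 at 14.7 FPKM, OsIAA6 at 11.2 FPKM, OsIAA31 at 5.92 FPKM, OsIAA13 at 4.28 FPKM and OsIAA1 at 2.27 FPKM. OsIAA11, at 1.19 FPKM, lay just above the level required for the test, and OsIAA23, at 0.598 FPKM, and OsIAA12, at 0.138 FPKM, lay below it. The ranges of OsIAA3 and OsIAA10 over the 8 libraries did not overlap with each other or with any lower member. OsIAA30 and OsIAA6 overlapped, as did OsIAA6 and OsIAA31, OsIAA31 and OsIAA13, OsIAA1 and OsIAA11, and OsIAA11 and OsIAA23. OsIAA30 exceeded OsIAA6 in 7 of the 8 libraries, the exception being osg1l2 replicate 1.

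**Figure D1:**
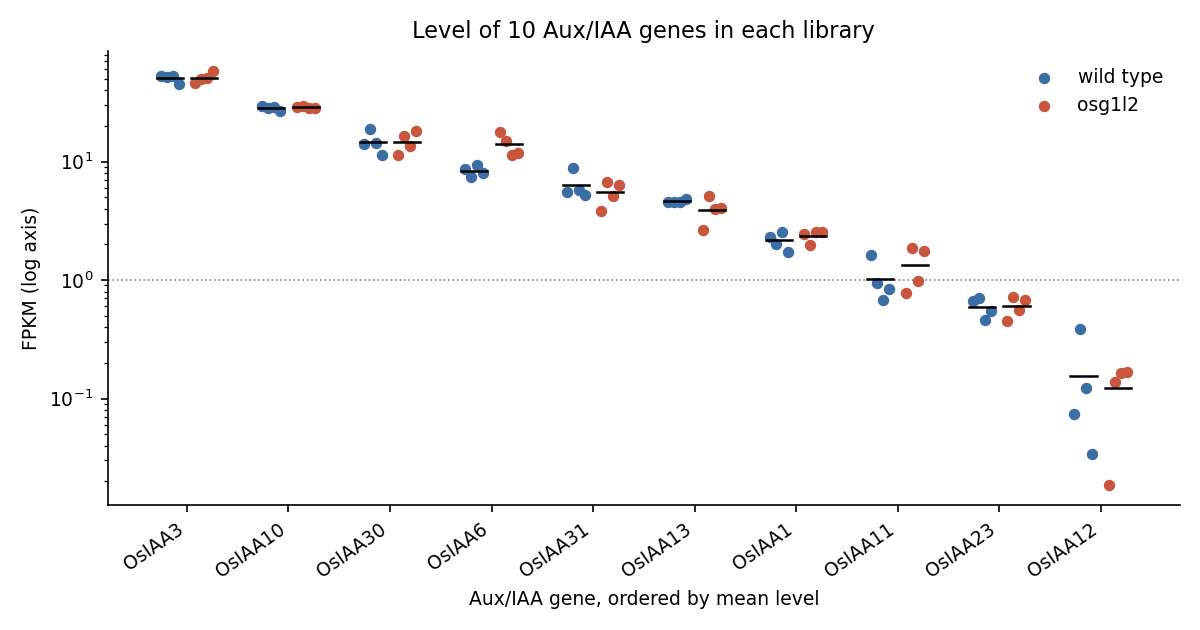
Each point is 1 library (wild type in blue, osg1l2 in red, replicates 1 to 4 from left to right), the vertical axis is FPKM on a log scale, black bars are means of 4 libraries, and the dotted line is 1 FPKM. OsIAA6 is the only gene of the 10 whose osg1l2 points all lie above its wild type points.

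OsIAA6 was the only one of the 10 that passed the test, and it was higher in osg1l2. This gene is known in rice for roles in drought tolerance and in tiller outgrowth. Its values were 8.69, 7.45, 9.42 and 7.95 FPKM in wild type replicates 1 to 4, and 17.9, 14.9, 11.4 and 11.8 FPKM in osg1l2 replicates 1 to 4. The groups did not overlap, and within osg1l2 the first and second libraries stood above the other two. The mean rose from 8.38 FPKM ± 0.861 (SD, n = 4) to 14.0 FPKM ± 3.02 (SD, n = 4), a ratio of 1.67. On the log2(FPKM + 1) scale the difference was 0.66 (SE 0.13, 95% interval 0.36 to 0.96), with an adjusted p of 0.042 (limma, Benjamini-Hochberg over 18254 genes). Among all tested genes 352 passed (1.93%), 164 of them higher in osg1l2 (0.898%) and 188 lower (1.03%). That split depended on scaling, with 205 higher and 139 lower after median-of-ratios rescaling and 210 higher and 130 lower after quantile normalization. The count of 352 moved by over 1.5 times without any one library except osg1l2 replicate 2, from 155 without wild type replicate 1 to 826 without wild type replicate 2. OsIAA6 ranked 291 by p among the tested genes, and 0.783% of them had a higher fold change. Its 1 call among 8 tested members stands beside that 1.93%, and its lack of overlap stands beside 11.8% of tested genes whose genotypes did not overlap. An exact two-sided permutation test on OsIAA6 gave p = 0.0286, the smallest that 4 against 4 libraries allow.

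The direction of OsIAA6 was the same in all 17 alternative fits, with fold changes of 0.54 to 0.74, but the call was near the threshold and was lost in 9 of them. Among these were the fits in which any library other than osg1l2 replicate 3 was left out (limma adjusted p from 0.05 to 0.12, against 0.042 without that library) and the fit with no filter on low values (adjusted p = 0.097). Without wild type replicate 2 the fold change was 0.61 (limma adjusted p = 0.051). The authors' deposited table gave OsIAA6 a log2 fold change of 0.77 with a q-value of 0.0024. In the authors' deposited table it was the only one of the 10 with a q-value under 0.05, where 2.02% of all entries reached that value.

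**Figure D2:**
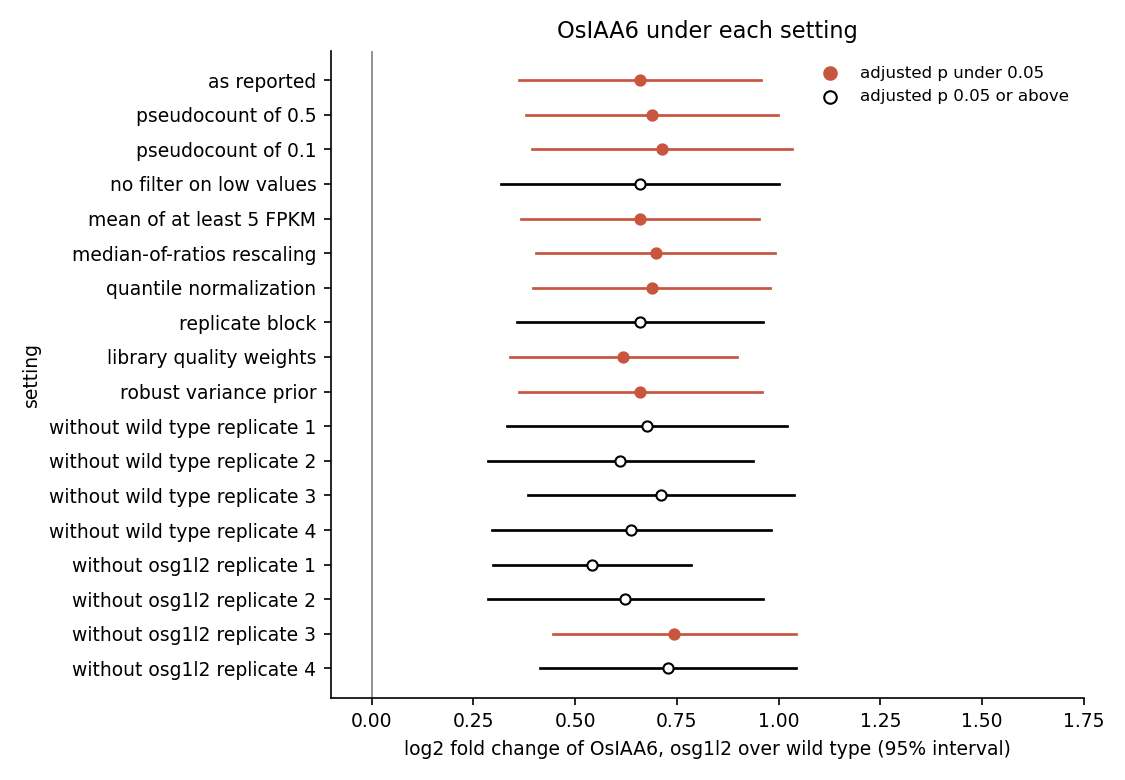
Points are the log2 fold change of OsIAA6, osg1l2 over wild type, and bars the 95% interval in each fit; filled red marks an adjusted p under 0.05 and open black one at or above it. The point stays between 0.54 and 0.74 and no interval reaches 0, while the adjusted p crosses the threshold in 9 of the 17 alternatives.

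Some markers were lowest in the osg1l2 libraries with the most OsIAA6, and others were not. Os03g0753100, on the marker list as the MADS-box gene MADS34, was at 1.77, 2.34, 4.52 and 5.39 FPKM in osg1l2 replicates 1 to 4 and at 7.51, 5.29, 7.71 and 7.24 FPKM in wild type. The libraries with the most OsIAA6, osg1l2 replicates 1 and 2, had the least of this marker, which was picked after its values were seen. The summed level of the inflorescence markers was also lowest in these 2 libraries, at 49.1 and 55.8 FPKM. Within osg1l2, the same 2 were lowest for Os03g0727000, at 15.0, 17.3, 17.9 and 21.5 FPKM in replicates 1 to 4. The same held for Os04g0598300 (12.5, 10.6, 15.9 and 14.6 FPKM) and Os01g0831000 (0.704, 1.28, 2.78 and 2.18 FPKM). Not every marker followed. Os06g0665400 ran the other way, at 0.44, 0.366, 0.173 and 0.207 FPKM in osg1l2 replicates 1 to 4, and Os05g0129700 (6.62, 8.44, 6.89 and 9.38 FPKM) and Os07g0129700 (12.0, 15.5, 14.7 and 16.7 FPKM) were higher in replicate 2 than in replicate 3. The floral organ markers summed to 6.54, 8.89, 6.22 and 5.21 FPKM in these 4 libraries. The part of tissue composition or stage in the OsIAA6 difference was not tested.

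The abundant members OsIAA3 and OsIAA10 did not pass the test, and their intervals were narrow. OsIAA3, whose stabilised form makes rice plants insensitive to auxin, was at 52.5, 52.0, 53.0 and 45.4 FPKM in wild type and at 46.1, 49.9, 51.1 and 57.7 FPKM in osg1l2. The groups overlapped, and both the lowest value (wild type replicate 4) and the highest (osg1l2 replicate 4) came from a library numbered 4. Its log2 fold change was 0.01 with a 95% interval of -0.16 to 0.19 (limma adjusted p = 0.96). OsIAA10, a target of a rice dwarf virus protein, was at 29.3, 28.2, 28.9 and 26.8 FPKM in wild type and at 28.7, 29.6, 28.1 and 28.5 FPKM in osg1l2. It varied least of the tested members, with a coefficient of variation within genotypes of 3.22%, against a median of 7.04% for the 2883 tested genes within 2-fold of its level. Its log2 fold change was 0.02, and the 95% interval was -0.08 to 0.13 (limma adjusted p = 0.84). Together OsIAA3 and OsIAA10 made up most of the transcript of the 10 genes. OsIAA3 held 43.4% ± 1.02 of their summed FPKM in wild type and 41.7% ± 2.33 in osg1l2 (SD, n = 4 each), and OsIAA10 held 24.3% ± 1.17 and 23.5% ± 1.45.

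**Figure D3:**
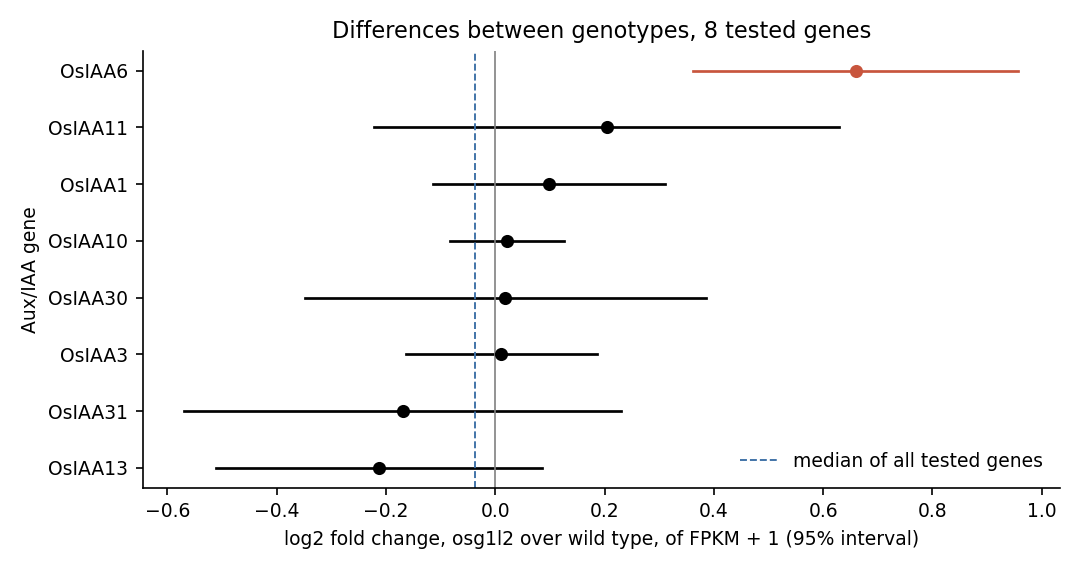
Points are fold changes between osg1l2 and wild type, as differences in log2(FPKM + 1), for the 8 tested genes, with bars for the 95% interval; the dashed line is the median of all tested genes, -0.04. The interval of OsIAA6 (red) lies above 0, and the intervals of the other 7 include 0.

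OsIAA30 and OsIAA31 are neighbours on chromosome 12, with no identifier listed between them, and their levels varied together from library to library. OsIAA30 was at 14.0, 18.8, 14.3 and 11.3 FPKM in wild type and at 11.3, 16.3, 13.5 and 18.0 FPKM in osg1l2. OsIAA31 was at 5.52, 8.83, 5.73 and 5.23 FPKM in wild type and at 3.84, 6.77, 5.13 and 6.29 FPKM in osg1l2. The same 3 libraries, wild type replicate 2 and osg1l2 replicates 2 and 4, were highest for both genes, and the genotypes overlapped for both. Each was more variable than 95.9% of the tested genes within 2-fold of its level, with coefficients of variation within genotypes of 20.6% for OsIAA30 and 25.4% for OsIAA31. These spreads include wild type replicate 2, where OsIAA31 was at 8.83 FPKM against 5.23 to 5.73 FPKM in the other wild type libraries. The log2 fold change was 0.02 for OsIAA30 (95% interval -0.35 to 0.38, limma adjusted p = 0.97) and -0.17 for OsIAA31 (95% interval -0.57 to 0.23, limma adjusted p = 0.64). These wide intervals do not show that the levels were equal. Without wild type replicate 2, the library high in leaf markers, the log2 fold changes were 0.14 and -0.02.

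The FPKM ratio of the 2 neighbours, which does not depend on how a library was scaled, varied less than either gene. The log2 ratio tested below holds a pseudocount and is not free of scaling. OsIAA30 exceeded OsIAA31 by 2.54, 2.13, 2.50 and 2.17 times in the wild type libraries and by 2.95, 2.41, 2.63 and 2.87 times in the osg1l2 libraries. The mean log2 ratio, with a pseudocount of 1, was 1.10 ± 0.11 in wild type and 1.28 ± 0.10 in osg1l2 (SD, n = 4 each), and the groups overlapped. The difference of 0.19 had an exact two-sided permutation p of 0.0857, or 0.171 after adjustment over the 2 neighbouring pairs compared. The smallest p that this test allows with 4 libraries per genotype is 0.0286. After adjustment a pair at that value would pass only if the other pair also had a low p. The adjusted test could therefore hardly have called either pair, and no conclusion is drawn from it. The sources used here do not say whether the authors' quantification could share reads between such related genes.

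**Figure D4:**
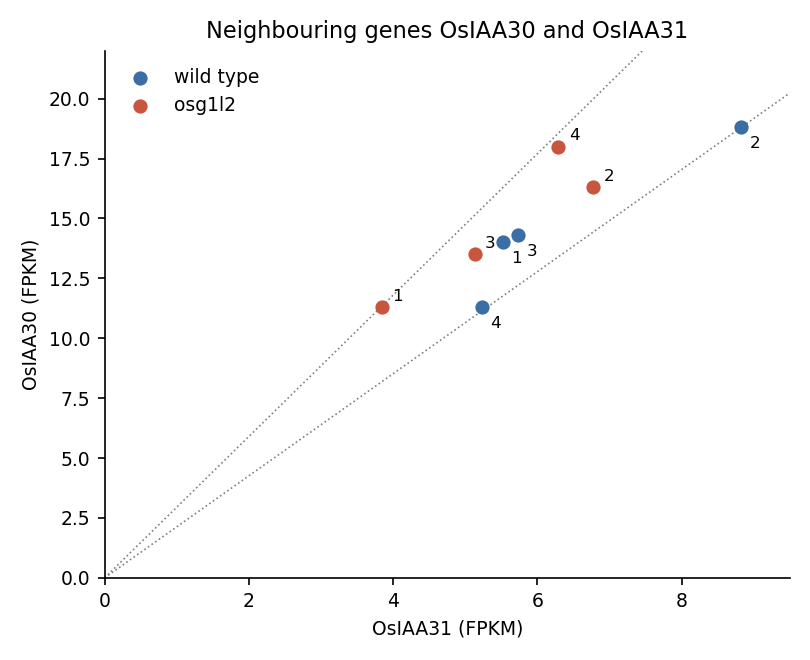
Each point is 1 library, numbered by replicate, with OsIAA31 on the horizontal and OsIAA30 on the vertical axis, both in FPKM; dotted lines mark the lowest and highest ratio, 2.13 and 2.95. The 8 libraries lie in a narrow wedge, and wild type replicate 2 lies farthest along it.

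The other neighbours, OsIAA11 and OsIAA12 on chromosome 3, were both low, and their levels did not follow each other in the same way. A stabilised form of OsIAA11 blocks the start of lateral roots in rice. OsIAA11 was at 1.64, 0.952, 0.672 and 0.838 FPKM in wild type and at 0.777, 1.88, 0.977 and 1.76 FPKM in osg1l2, with overlapping groups. Its log2 fold change of 0.20 had a 95% interval of -0.22 to 0.63 (limma adjusted p = 0.59). OsIAA12 lay between 0.0337 and 0.388 FPKM in wild type, the highest being wild type replicate 2, and between 0.0187 and 0.168 FPKM in osg1l2. It was below the level required for the test, and an exact two-sided permutation test on its log2(FPKM + 1) values gave p = 0.83. The ratio of OsIAA11 to OsIAA12 ranged from 2.45 to 41.6 over the 8 libraries. Its mean log2 ratio, with a pseudocount of 1, was 0.80 ± 0.36 in wild type and 1.04 ± 0.30 in osg1l2 (SD, n = 4 each; exact two-sided permutation p = 0.343, adjusted p = 0.343).

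The remaining members, OsIAA13, OsIAA1 and OsIAA23, gave no call. A stabilised form of OsIAA13 also blocks lateral root initiation. OsIAA13 was at 4.60, 4.55, 4.57 and 4.80 FPKM in wild type and at 2.62, 5.09, 4.01 and 4.03 FPKM in osg1l2. The wild type libraries were close together, and the osg1l2 libraries reached both above and below them. The log2 fold change was -0.21 with a 95% interval of -0.51 to 0.09 (limma adjusted p = 0.41), and it was -0.07 without osg1l2 replicate 1. OsIAA1, whose overexpression alters responses to auxin and brassinosteroid in rice, was between 1.74 and 2.56 FPKM in wild type and between 1.99 and 2.52 FPKM in osg1l2 (log2 fold change 0.10, 95% interval -0.11 to 0.31, limma adjusted p = 0.61). OsIAA23, which maintains the root quiescent centre, was between 0.462 and 0.701 FPKM in wild type and between 0.452 and 0.723 FPKM in osg1l2. It was below the level required for the test, and its exact two-sided permutation p was 0.886.

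Over the 8 tested members, 6 log2 fold changes were positive and 2 negative, with a median of 0.02 against -0.04 over all tested genes. Of all tested genes, 6995 were positive and 11259 negative. The median over all tested genes depended on scaling, at -0.0028 after median-of-ratios rescaling and -0.0033 after quantile normalization. The direction was not stable for OsIAA3, OsIAA10 and OsIAA30, whose fold changes near 0 changed sign without some single libraries. The summed level of the 10 genes was 117 FPKM ± 8.42 in wild type and 123 FPKM ± 8.14 in osg1l2 (SD, n = 4 each), with overlapping ranges. Without OsIAA6, the other 9 summed to 109 FPKM in both genotypes, ± 8.36 in wild type and ± 9.91 in osg1l2 (SD, n = 4 each). OsIAA6 held between 6.02% and 7.87% of the summed FPKM in wild type and between 8.98% and 15.6% in osg1l2.

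The partners of the Aux/IAA proteins were described with 4 lists of identifiers, 65 in all, written from general knowledge of rice annotation. Neither the deposited tables nor the reference gene table pairs these identifiers with names, so single genes are given by identifier. Of the 65, 47 reached the test, and 2 were called, both higher in osg1l2 and both among the auxin response factors, beside 1.93% called over all tested genes. With library quality weights another gene, the response factor Os01g0236300, was called as lower (log2 fold change -0.36, limma adjusted p = 0.043). Without wild type replicate 2 the GH3 gene Os05g0586200 was called as higher (log2 fold change 0.45, limma adjusted p = 0.041).

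Of 21 other Aux/IAA genes, 13 reached the test and none passed it (limma; 2 at an unadjusted p under 0.05), with a median log2 fold change of -0.07. The most abundant, Os05g0230700, was at 123 FPKM ± 5.70 in wild type and 110 FPKM ± 10.1 in osg1l2 (SD, n = 4 each; log2 fold change -0.16, limma adjusted p = 0.25). It thus exceeded every one of the 10 members. The authors' deposited table gave 2 of the 21 a q-value under 0.05 (2.02% over all entries), Os03g0797800 (q = 0.0024, log2 fold change -1.44) and Os11g0221000 (q = 0.032, log2 fold change -0.54). In the per-library table Os03g0797800 was at 4.24 FPKM in wild type replicate 2 and between 0.559 and 1.08 FPKM in the other wild type libraries, against 0.491 to 0.866 FPKM in osg1l2. Os11g0221000 was at 2.85 FPKM in wild type replicate 2, 0.999 to 1.37 FPKM in the others and 0.941 to 1.37 FPKM in osg1l2. The high library of both genes was the one high in leaf markers, and the part of that library's makeup in these calls was not tested.

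Of 25 auxin response factors, the DNA-binding partners of the Aux/IAA repressors, 22 reached the test and 2 rose, beside 0.898% of all tested genes, with a median log2 fold change of -0.0044. At an unadjusted p under 0.05 there were 9 of the 22, beside 19.5% of all tested genes. The genotypes did not overlap for 5 of the 22, 2 higher and 3 lower in osg1l2, beside 11.8%. The authors' deposited table gave a q-value under 0.05 to 2 higher genes and to 1 lower gene of the 25, beside 2.02% of all entries. The lower gene was Os01g0236300 (log2 fold change -0.30, q = 0.038; limma adjusted p = 0.10). Os05g0515400 was at 4.83, 4.92, 5.41 and 5.28 FPKM in wild type and at 6.62, 6.60, 7.00 and 6.89 FPKM in osg1l2. The groups did not overlap, and the log2 fold change was 0.35 (SE 0.05, limma adjusted p = 0.0094). It was called in 16 of the 17 alternative fits. Os12g0613700 was at 66.4, 62.3, 61.9 and 59.2 FPKM in wild type and at 73.9, 74.5, 73.3 and 83.8 FPKM in osg1l2, again without overlap. Its log2 fold change was 0.29 (SE 0.06, limma adjusted p = 0.048), and the call was lost in 11 of the 17 alternative fits. These included every left-out library except wild type replicate 2 (limma adjusted p 0.08 to 0.14, against 0.048 without that library). They also included no filter (limma adjusted p = 0.07), a mean of at least 5 FPKM (0.055) and the robust prior (0.051). The most abundant, Os01g0927600, was at 119 FPKM ± 13.9 in wild type and 129 FPKM ± 7.49 in osg1l2 (SD, n = 4 each; limma adjusted p = 0.48).

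The 7 TIR1/AFB receptors and TOPLESS-type corepressors all reached the test, and none passed it (limma; 0 at an unadjusted p under 0.05). Their log2 fold changes lay between -0.09 and 0.03. The most abundant, Os04g0395600, was at 68.3 FPKM ± 6.62 in wild type and 64.4 FPKM ± 1.31 in osg1l2 (SD, n = 4 each; limma adjusted p = 0.57). GH3 genes, which encode enzymes that attach amino acids to auxin and are also early auxin-induced genes, gave 5 tested members of 12 and no call (limma; 0 at an unadjusted p under 0.05). Their median log2 fold change was 0.16, and the most abundant, Os07g0592600, was at 18.1 FPKM ± 2.49 in wild type and 20.3 FPKM ± 3.07 in osg1l2 (SD, n = 4 each; limma adjusted p = 0.51).

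**Figure D5:**
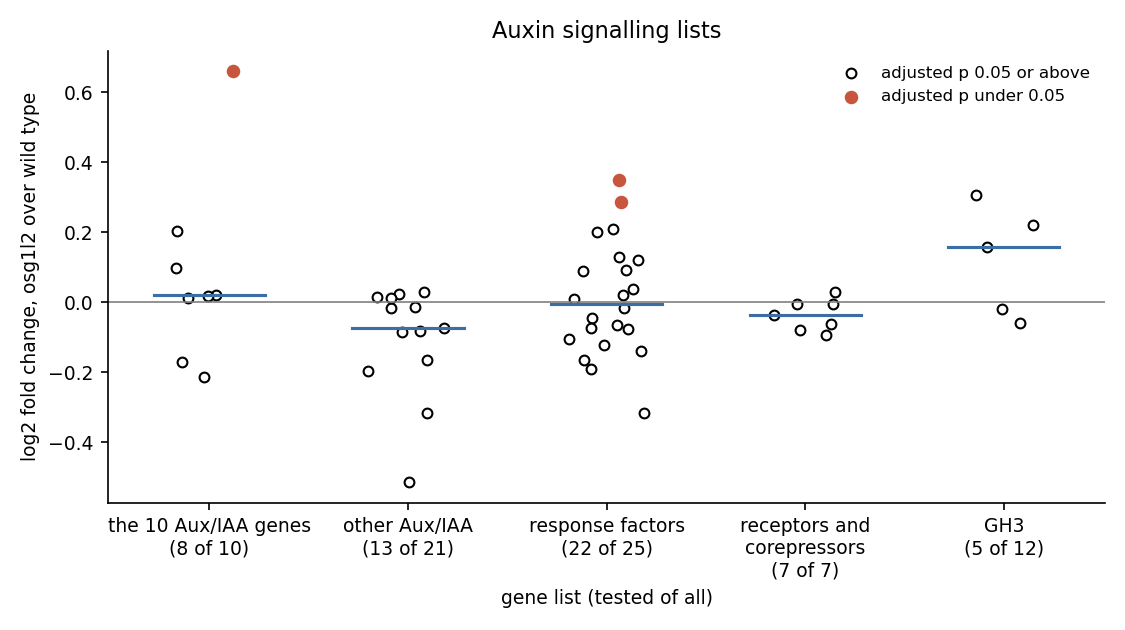
Each point is the difference in log2(FPKM + 1) of 1 tested gene, osg1l2 minus wild type, grouped by list, with blue bars for medians and red for an adjusted p under 0.05. The 3 red points are OsIAA6 at 0.66 and the response factors Os05g0515400 at 0.35 and Os12g0613700 at 0.29.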

How the data were processed

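RNA was sequenced from 4 wild type and 4 osg1l2 libraries. The authors deposited FPKM per gene and library with the genome build IRGSP-1.0 named in the submitters' processing notes; the sources used here name neither aligner nor quantification tool. The values include positive values too small for 1 read, so they are estimates and depth is unknown. A second table, per the file headers, holds the authors' value per genotype (a score of unnamed unit), log2 fold change and q-value, copied without a test.

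The 18254 genes averaging 1 FPKM or more were compared on log2(FPKM + 1), a scale that shrinks the changes of weakly expressed genes, with limma 3.58.1 in R 4.3.3 (trended prior, two-sided, Benjamini-Hochberg over all tested genes, called under 0.05). Single values were compared by exact permutation in scipy 1.17.1 (Python 3.11.15, numpy 2.4.6, pandas 2.3.3, matplotlib 3.10.9). Tested on simulated data for this comparison over 18254 genes, the fit recovered 64.5% of 200 genes shifted by 0.5 (log2), with 6 false calls, and 95% of 200 shifted by 1, with 7. The simulated noise was normal and independent for each gene and library, with no outlying library. These rates may therefore not hold for the deposited data. Neighbours were read from the order of identifiers; in the reference gene table (ASM3414082v1) all 10 names lie on the chromosome the identifier gives, and both neighbouring pairs have 0 genes between them. That table contains 1 of the 37859 identifiers, so the pairing of identifiers with names was given with the list of members.

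The members and lists were chosen with earlier results of these data known. Named were all 10 members, the called genes and the most abundant gene of each other auxin list, and the 3 genes most like the members' sum; genes picked after their values were seen are the markers named, Os03g0797800, Os11g0221000, Os01g0236300 and Os05g0586200. The design text calls replicates independent but names no separate plants or pools, and p-values cover only the variation among the libraries, which may be technical. Alternatives were pseudocounts of 0.5 and 0.1, no filter, a mean of at least 5 FPKM, median-of-ratios and quantile scaling, library quality weights, a replicate block, a robust prior, leaving out each library, and a deposited q under 0.01. A count test was not run, since the values are no counts. Protein and promoter sequences were not used here.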

Additional observations from a re-analysis of the deposited data

Results flagged for a closer look

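Within groups of 4 libraries, 4 of 30 groups examined held a library whose gap to the nearest other exceeded Dixon's critical share of the group's range. Chance gives about 1 in 20 for a single group of normally distributed values. The 30 groups share the same 8 libraries and include the sum of the members, so they are not independent. The count is therefore a description and no excess is read from it. The first was OsIAA1 in osg1l2 replicate 2, at 1.99 FPKM against 2.46 to 2.52 FPKM in the other osg1l2 libraries (gap of 0.88 of the range). The second was OsIAA3 in wild type replicate 4, at 45.4 FPKM against 52.0 to 53.0 FPKM (0.87). The third was OsIAA31 in wild type replicate 2, at 8.83 FPKM against 5.23 to 5.73 FPKM (0.861). The last was the summed level of the 5 leaf markers in wild type replicate 2, at 70.9 FPKM against 8.52 to 10.1 FPKM (0.975). Of these markers, Os01g0600900 was at 34.1 FPKM in that library and at 2.81 to 3.82 FPKM in the other wild type libraries.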

How the results depend on the processing

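OsIAA6 kept its direction in every fit. Its log2 fold change was 0.66 with no filter (limma adjusted p = 0.097) and 0.66 with the replicate block (adjusted p = 0.10), where the call was lost, and 0.54 to 0.74 without each library. The members called numbered 1, but 0 with no filter and 0 with the replicate block, and 0 to 1 without each library. The other auxin genes called numbered 2, but 1 with no filter, 1 at a mean of at least 5 FPKM, 1 with a robust prior, 0 with the replicate block (limma; adjusted p = 0.064 for Os05g0515400 and 0.18 for Os12g0613700), 3 with library quality weights (2 higher, 1 lower), and 1 to 3 without each library. Over all genes 352 were called, against 153 at a mean of at least 5 FPKM, 152 with the replicate block, 1097 with library quality weights and 155 to 826 without each library. The cause was not tested, except that fewer genes or libraries enter some fits. Same-numbered libraries showed no strong sign of pairing: their deviations from genotype means correlated at 0.069, -0.017, -0.091 and -0.12. Correlations between differently numbered libraries were not set beside these, so the values do not establish that the libraries were unpaired. Near 0, signs changed without wild type replicate 4 for OsIAA3 (-0.0401), OsIAA10 (-0.0044) and OsIAA30 (-0.088), without osg1l2 replicate 4 for OsIAA3 (-0.0466) and OsIAA30 (-0.0775), and without osg1l2 replicate 2 for OsIAA30 (-0.0321). Over the left-out libraries OsIAA3 ranged from -0.0466 to 0.0593, OsIAA10 from -0.0044 to 0.0372 and OsIAA30 from -0.088 to 0.1394. The ratios of neighbours kept direction and side of the threshold in all alternatives run, as did the count of members in the authors' deposited table at q under 0.01. For the ratios, the replicate block could not have crossed the threshold, because the smallest p it allows lies above it. Keeping the same side in that alternative therefore says nothing about stability. With no read depth given, its limits on low members such as OsIAA12 are unknown.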

Other observations

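Among 18187 tested genes outside the lists, the 3 whose log2(FPKM + 1) values were most like those of the summed Aux/IAA level over the 8 libraries were Os03g0810850 (Pearson's r = 0.973), Os07g0501800 (r = 0.961) and Os06g0102300 (r = 0.946). They are the highest of many correlations over few libraries and serve as a description. None of the 3 differed between genotypes by the test (limma adjusted p = 0.49, 0.43 and 0.61).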
